A study of Rattus norvegicus with 4 samples.

Results

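Somatostatin (Sst) and 7 other neuropeptide precursor genes were followed in cultures of embryonic rat retina, grown as neurospheres (free-floating balls of dividing cells), without and with medium conditioned by endothelial cells. The other 7 were Npy (neuropeptide Y), Tac1 (precursor of substance P and neurokinin A), Vip (vasoactive intestinal peptide), Cck (cholecystokinin), Gal (galanin), Penk (proenkephalin) and Adcyap1 (the peptide PACAP). All probe sets, groups of short probes that together measure 1 transcript on the array, were taken whose annotation gives exactly 1 gene symbol and that symbol is one of these 8. This gave 9 probe sets for the 8 genes, of 31099 probe sets on the array and 14217 genes with a probe set of 1 symbol, and 0 probe sets with several symbols named any of the 8. The genes were proposed with the difference between the conditions already known, Sst being among the largest falls, that is, they were chosen partly on the values of this contrast, so those values are a description and carry no p-value.

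The retina came from embryonic day 18 embryos of timed pregnant Sprague Dawley rats. Cells pooled from the embryos of 1 batch were raised as neurospheres with epidermal growth factor (EGF) alone, or with EGF together with the endothelial conditioned medium, so EGF was present in both conditions. A further pool of embryos supplied the replicate of each condition, and each condition has 2 arrays. The endothelial cells that conditioned the medium are not described in the sources used here, and no array of unconditioned or other conditioned medium was analysed here. Retinal identity was checked on markers: the photoreceptor homeobox factor Crx lay between 7.67 and 8.86 log2 and the phototransduction regulator Pdc between 8.85 and 11.00 log2 on the 4 arrays, well above the limit for dim probe sets given below.

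Neuropeptides are made as longer precursors that prohormone convertases and carboxypeptidases cut inside dense-core granules, and they act at a distance on G protein-coupled receptors. In the mature retina most of them mark small subsets of amacrine cells, the inhibitory interneurons of the inner retina, and some occur in ganglion or displaced amacrine cells. Somatostatin lowers cAMP through its receptors, whereas vasoactive intestinal peptide and PACAP raise it. Transcription of several of these genes responds to cAMP through the factor CREB, which was first described at the promoter of rat Sst.

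The deposited log2 values were not on a common level. The median probe set read 6.03 and 6.25 log2 on the EGF arrays and 6.84 and 6.56 log2 on the conditioned-medium arrays, so each difference is given on quantile normalised values, which bring all 4 arrays to 1 distribution, and compared with the deposited and the median-centred values. The median difference of the 21717 tested probe sets came to -0.01 log2 quantile normalised, 0.43 log2 as deposited and -0.14 log2 median centred. A probe set was called dim when its quantile normalised mean over the 4 arrays was below 4.77 log2, the 30th percentile of all probe sets. Of the 9 neuropeptide probe sets, 6 passed, 1 each for Sst, Npy, Tac1, Cck, Gal and Penk, and 3 were dim, those of Vip and Adcyap1. The member nearest to the limit from above was Cck (group means 5.90 and 6.25 log2) and the nearest from below was probe set 1368892_at of Adcyap1 (3.81 and 3.31 log2). A control of RNA quality also differed: actin read higher at its 3' end than at its 5' end by 1.99 and 2.08 log2 on the EGF arrays, but by 1.54 and 1.37 log2 on the conditioned-medium arrays, and this gap grows when RNA is broken. Its part in the differences that follow was not tested.

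The promoter table of RefSeq (build GRCr8) held 6 of the 8 genes, Sst, Npy, Tac1, Vip, Gal and Adcyap1, each with 250 bases before and 50 bases after the annotated start. Because Sst and Tac1 were the tested members that were lower with conditioned medium on every scale, and because CREB sites are known in this family, these windows were searched for the full cAMP response element TGACGTCA, which reads the same on both strands, and for its core TGACG, read on either strand, which lies within it. The full element occurred in Sst alone of the 6, against 1.83% of all 33469 promoters of the same length. The core occurred in 4 of the 6, namely Sst, Tac1, Vip and Gal, against 21.2% of all promoters. The stretches around the matches are shown with the matched letters in capitals, the full element for Sst and the core for the others.
Sst, chr11:90461513-90461575 (+): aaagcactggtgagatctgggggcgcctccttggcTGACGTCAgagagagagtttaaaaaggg
Tac1, chr4:36645365-36645394 (+): tccctaaaattgCGTCAtttcgaacccaat
Vip, chr1:44470371-44470400 (+): ggatcaccactgTGACGtctttcgaggagc
Gal, chr1:210084596-210084670 (-): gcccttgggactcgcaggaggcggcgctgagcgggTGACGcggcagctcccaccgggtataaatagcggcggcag
Counted from the annotated start as base 1, the element of Sst spans bases 3 to 10. The core matches of Tac1, Vip and Gal begin 206, 97 and 63 bases before the start site that the window is built on. For Sst, Npy and Gal that site is the first base of the gene in the RefSeq gene table of the same build. For Tac1, Vip and Adcyap1 it lies 239, 248 and 12623 bases past the gene's first base, so the matches of Tac1 and Vip fall inside the annotated genes and need not be promoter sequence of the transcripts measured. In the literature the Sst element lies just upstream of the transcription start, so the RefSeq start used here lies before that site. A match is a description of letters in these windows and does not show binding.

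Sst, the precursor of somatostatin, was much lower with conditioned medium. Its probe set (1367762_at) read 8.25 and 8.14 log2 on the EGF arrays and 6.80 and 6.22 log2 on the conditioned-medium arrays, quantile normalised. Both conditioned-medium arrays lay below both EGF arrays by at least 1.35 log2, although they differed from each other by more (SD 0.41, n = 2) than the EGF arrays did (SD 0.08, n = 2). The difference was -1.69 ± 0.18 log2 (SE), a 3.22-fold lower level, and it was -1.24 log2 as deposited and -1.80 log2 median centred. Within each array, a measure that no scaling changes, Sst fell at percentile 70.2 and 68.9 of all probe sets with EGF alone and at percentile 53.9 and 47.9 with conditioned medium. Of the 21717 tested probe sets, 14 had a more negative quantile normalised difference. On an array of a mixed culture, fewer cells that make a transcript and less of it per cell cannot be told apart, which holds for every gene below.

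Tac1, the tachykinin precursor that gives substance P, was also lower with conditioned medium. Its probe set (1369309_a_at) read 10.05 and 10.10 log2 on the EGF arrays and 9.21 and 9.33 log2 on the conditioned-medium arrays. The groups lay 0.72 log2 apart at their nearest arrays. The difference was -0.81 ± 0.08 log2 (SE), a 1.75-fold lower level. On the other scales it kept its sign, with -0.48 log2 as deposited and -1.05 log2 median centred. Its rank moved from percentile 90.0 and 90.4 to percentile 81.6 and 82.9.

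Npy, the precursor of neuropeptide Y, moved the opposite way. Its probe set (1387154_at) read 10.39 and 10.29 log2 on the EGF arrays and 10.87 and 10.88 log2 on the arrays with conditioned medium. Both conditioned-medium arrays lay above both EGF arrays, by at least 0.49 log2. The difference was 0.54 ± 0.07 log2 (SE), a 1.46-fold higher level, and 0.85 log2 as deposited. With median-centred arrays it was smaller, 0.29 log2. Npy ranked at percentile 92.5 and 91.7 of the EGF arrays and at percentile 95.3 of both conditioned-medium arrays.

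Penk, the precursor of the enkephalins, which act on opioid receptors, was higher with conditioned medium by a similar amount. Its probe set (1367949_at) read 8.07 and 8.23 log2 on the EGF arrays and 8.57 and 8.62 log2 on the arrays with conditioned medium. The groups did not overlap on any of the 3 scales. The difference was 0.44 ± 0.11 log2 (SE), with 0.82 log2 as deposited and 0.25 log2 median centred. Cck, the precursor of cholecystokinin, lay nearest to the limit for dim probe sets of the 6 tested members and had the widest spread between EGF arrays. Its probe set (1387032_at) read 5.74 and 6.06 log2 on the EGF arrays and 6.33 and 6.17 log2 on the arrays with conditioned medium. The nearest arrays of the groups were only 0.11 log2 apart, less than the 0.23 log2 SD of the EGF arrays. Its difference was 0.35 ± 0.20 log2 (SE) quantile normalised, 0.97 log2 as deposited and 0.40 log2 median centred.

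Gal, the galanin precursor, had no settled direction. Its probe set (1387088_at) read 10.36 and 10.26 log2 on the EGF arrays and 10.09 and 10.22 log2 on the arrays with conditioned medium. The difference was -0.16 ± 0.08 log2 (SE) quantile normalised and -0.41 log2 median centred, but 0.16 log2 as deposited, so its sign depended on the scaling. The nearest arrays of the groups were 0.04 log2 apart.

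The probe sets of Vip and Adcyap1 were dim in both conditions. Vip (1377146_at) read 3.51 and 3.71 log2 on the EGF arrays and 3.27 and 3.42 log2 on the arrays with conditioned medium. Probe set 1368892_at of Adcyap1 read 3.65 and 3.97 log2 on the EGF arrays and 3.29 and 3.33 log2 on the arrays with conditioned medium, and 1394908_at read 3.57 and 2.94 log2 and then 3.09 and 3.27 log2. The group means of all 3 lay between 3.18 and 3.81 log2, below the 4.77 log2 limit, so these arrays give no usable level for either peptide. Their quantile normalised differences were -0.27, -0.50 and -0.08 log2, and all 3 changed sign as deposited (0.23, 0.03 and 0.37 log2).

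**Figure D1:**
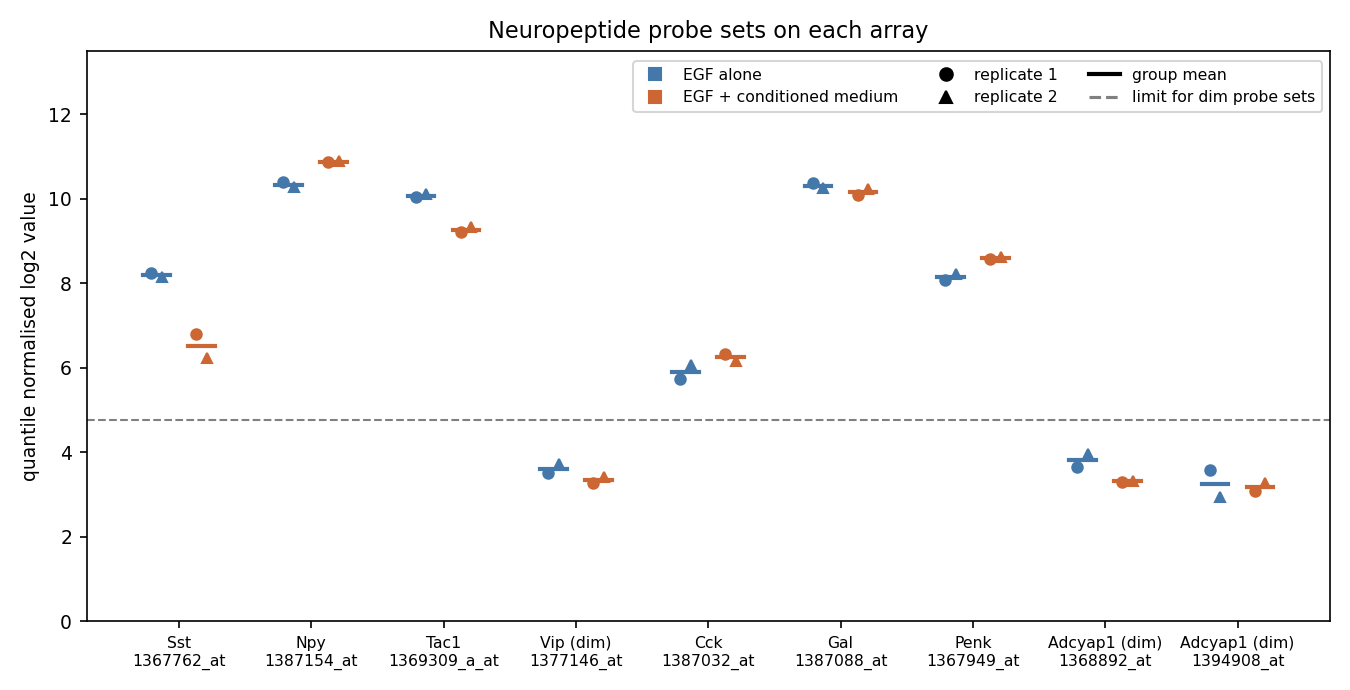
Quantile normalised log2 value of each of the 9 neuropeptide probe sets on the 4 arrays; circles are replicate 1, triangles replicate 2, bars the group means, and the dashed line is the 4.77 log2 limit for dim probe sets. Sst and Tac1 sit lower and Npy and Penk higher with conditioned medium, and the 3 probe sets of Vip and Adcyap1 lie below the limit on all arrays.

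The fit across all tested probe sets (limma, Benjamini-Hochberg adjusted p under 0.05, in the same direction on all 3 scales) called Npy higher and Sst and Tac1 lower, that is 1 and 2 of the 6 tested members. The same rule called 7.27% of all tested probe sets higher and 1.51% lower. Groups that did not overlap on any of the 3 scales were found for 3 members higher (Npy, Penk and Cck) and 2 lower (Sst and Tac1), against 18.6% and 4.84% of all tested probe sets. On quantile normalised values alone 2 members were called higher (Npy and Penk; 12.6% of all) and 2 lower (12.9%). On deposited values alone 3 were called higher (with Cck; 38.3%) and 2 lower (1.51%), and on median-centred values alone 1 higher (8.4%) and 3 lower (with Gal; 25.6%). Since the genes were chosen with this contrast in view, these counts are not support for the list. With the replicate number added to the fit as a block, Sst was called but Tac1 and Npy were not. The same held without the intensity trend of limma. Without the filter on dim probe sets Sst and Tac1 were called but Npy was not. Sst passed the rule with any 1 of the 4 arrays left out. Tac1 did not pass with any array left out, and Npy passed with EGF replicate 1 left out but not without any of the other 3 arrays.

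**Figure D2:**
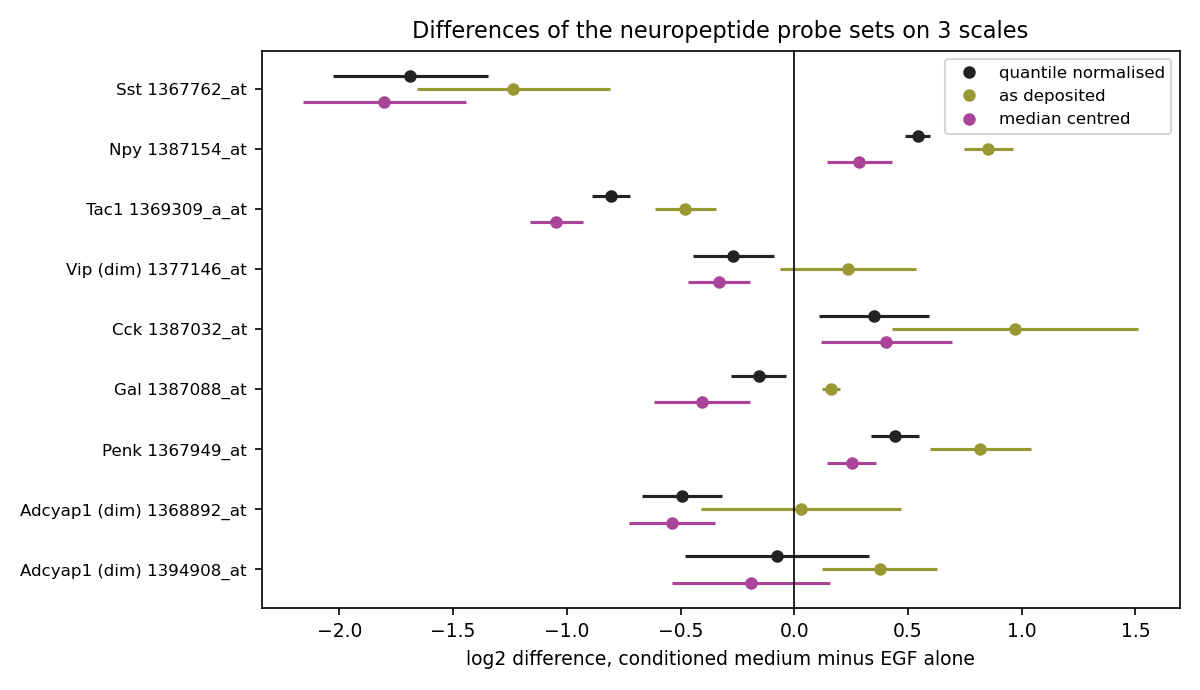
Difference of the group means (points; log2, conditioned medium minus EGF alone) of the 9 probe sets on quantile normalised, deposited and median-centred values; the lines run from the lowest to the highest of the 4 differences between single arrays of the 2 conditions. Sst and Tac1 are below 0 and Npy, Cck and Penk above 0 on all 3 scales, while Gal and the dim probe sets change sign.

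The genes with the profile most like that of Sst over the 4 arrays were found by the Euclidean distance between centred quantile normalised values, among 11397 genes each represented by its brightest tested probe set. The nearest 5 were Fabp12, a fatty acid-binding protein (distance 0.21 log2), Rtn4rl2, a Nogo receptor family member (0.31), Stum (0.34), the membrane protein Tmem215 (0.39) and Marchf1, a membrane-bound ubiquitin ligase (0.44). Fabp12 read 7.07 and 7.17 log2 on the EGF arrays and 5.72 and 5.32 log2 on the arrays with conditioned medium. Like Sst it was lower on conditioned-medium replicate 2 than on replicate 1. The 5 genes were picked on these same 4 arrays, so a shared pattern follows from the selection. The differences of the other 4 ranged from -1.83 log2 (Marchf1) to -1.58 log2 (Rtn4rl2). Stum was not called on all 3 scales, and its conditioned-medium mean of 4.40 log2 was below the limit for dim probe sets.

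Of the receptors for the 8 peptides, the kappa opioid receptor alone fell. The list held 24 receptors, 22 of them on the array and 13 bright enough to be tested, and the dim 9 included the neuropeptide Y receptors Npy1r, Npy2r and Npy5r and the opioid receptors Oprd1 and Oprm1. Of the 13, 1 fell and 0 rose (limma, adjusted p under 0.05 on all 3 scales), with 1 and 0 at an unadjusted p under 0.05. Over the brightest probe set of each of 11494 genes the rule called 8.53% higher and 1.78% lower. These shares are for the adjusted p. The share of all genes at an unadjusted p was not counted, so the unadjusted counts here and for the lists below have no comparison. The median difference of the 13 was 0.07 log2, against 0.00 log2 over those 11494 genes.

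The receptor that fell was Oprk1, the kappa opioid receptor, whose main ligand, dynorphin, comes from a precursor outside the 8. Its brightest probe set read 8.13 and 8.39 log2 on the EGF arrays and 6.74 and 6.67 log2 on the arrays with conditioned medium, and the groups did not overlap. The difference was -1.55 ± 0.13 log2 (SE; limma adjusted p = 4.90e-05), and it passed with any 1 array left out. The other 2 tested probe sets of Oprk1 did not pass, at -0.99 and -0.16 log2, and the mean of its probe sets did not pass either, so the size of this fall rests on 1 probe set.

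Among the 5 somatostatin receptors, which signal through inhibitory G proteins, Sstr2 alone had an adjusted p under 0.05 on quantile normalised values. Its brightest probe set read 8.29 and 8.40 log2 on the EGF arrays and 8.73 and 8.76 log2 on the arrays with conditioned medium. It was 0.40 ± 0.10 log2 (SE) higher, with a limma adjusted p of 0.0153 quantile normalised, but it did not pass on all 3 scales. Its other probe set, at 0.64 log2, did. Sstr1 (0.11 ± 0.16 SE), Sstr3 (-0.02 ± 0.22 SE), Sstr4 (-0.11 ± 0.22 SE) and Sstr5 (0.37 ± 0.34 SE) did not pass. In each of these 4 the groups overlapped on quantile normalised and median-centred values. As deposited they did not overlap, and all 4 were higher with conditioned medium. The EGF mean of Sstr5, 4.625 log2, was below the limit for dim probe sets. The receptor shared by PACAP and vasoactive intestinal peptide, Vipr2, differed by -0.06 ± 0.12 log2 (SE), and the PACAP receptor Adcyap1r1 by -0.07 ± 0.10 log2 (SE).

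Genes that process precursors and build dense-core granules moved in both directions. Of 23 on the list 22 were on the array and 20 were tested, of which 4 fell, 1 rose and 15 were not called. For comparison, 1.78% of all 11494 genes were called lower and 8.53% higher. At an unadjusted p under 0.05 in limma on all 3 scales 6 of the 20 were lower and 2 higher. The share of all genes at that threshold was not counted, so these 2 counts cannot be set beside the shares above. Chga, chromogranin A, a core protein of the granules, read 9.02 and 8.91 log2 on the EGF arrays and 7.96 and 7.83 log2 on the arrays with conditioned medium, a difference of -1.07 ± 0.11 log2 (SE; limma adjusted p = 1.04e-04). Rab3a, a small GTPase of vesicle release (-0.85 ± 0.09 SE), Scg5, the chaperone of convertase 2 (-0.77 ± 0.09 SE), and Scg3, secretogranin III (-0.71 ± 0.07 SE), were the other 3 that fell. Scg2, secretogranin II, rose by 0.74 ± 0.11 log2 (SE), though not with the first conditioned-medium array left out, and is named here after its values were seen. The convertase Pcsk2 (-0.08 ± 0.24 SE) did not pass, nor did the carboxypeptidase Cpe (-0.30 ± 0.06 SE) or the amidating enzyme Pam (0.44 ± 0.10 SE). These 3 are also named after their values were seen. The median of the 20 was -0.15 log2 quantile normalised and 0.23 log2 as deposited. Of the 4 falls, Rab3a alone passed without EGF replicate 1, Chga alone passed when either EGF replicate 2 or the first conditioned-medium array was left out, and 0 passed without the second conditioned-medium array.

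Enzymes that degrade peptides were called about as often as genes in general. Of 13 on the array 10 were tested, and 1 rose and 0 fell, against 8.53% and 1.78% of all 11494 genes, with 2 and 0 at an unadjusted p under 0.05 in limma on all 3 scales. Enpep, glutamyl aminopeptidase, read 7.45 and 7.36 log2 on the EGF arrays and 7.92 and 8.05 log2 on the arrays with conditioned medium (0.58 ± 0.12 SE; limma adjusted p = 5.82e-03). It passed without EGF replicate 1 but not without any of the other 3 arrays. Without the intensity trend Enpep was not called, and the 1 gene called was Ace, the angiotensin-converting enzyme. Mme (neprilysin), a peptidase that cuts enkephalins and somatostatin, was among the 3 dim genes.

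Among other peptide precursors Nts and Npvf rose. Of 48 precursors outside the 8, 38 were on the array and 21 were tested, of which 3 were called higher, 0 lower and 18 not, with 5 higher and 1 lower at an unadjusted p under 0.05. For comparison, 8.53% of all 11494 genes were called higher and 1.78% lower. On quantile normalised values alone 4 precursors were higher and 3 lower, against 12.6% and 12.9% of all tested probe sets on that scale. Pmch, named after its values were seen, had the lowest difference (-1.42 ± 0.33 SE, and -0.75 log2 as deposited) but did not pass on all 3 scales. Pdyn, the dynorphin precursor, also named after its values were seen, was 0.52 ± 0.16 log2 (SE) higher. It was 1.00 log2 higher as deposited and 0.44 log2 higher median centred, and it did not pass on all 3 scales either. Nts, the neurotensin precursor, read 6.80 and 7.13 log2 on the EGF arrays and 8.39 and 8.40 log2 on the arrays with conditioned medium, 1.43 ± 0.14 log2 higher (SE; limma adjusted p = 8.38e-05). Npvf, the precursor of the RFamide-related peptides, read 6.36 and 6.29 log2 and then 7.76 and 7.59 log2, 1.35 ± 0.14 log2 higher (SE; limma adjusted p = 1.45e-04). Nts and Npvf each passed with any 1 array left out. Adm, adrenomedullin, a vasodilator peptide that many cell types make, was the third gene called, at 0.92 ± 0.26 log2 (SE). Its EGF mean of 4.71 log2 was below the limit for dim probe sets, so it was tested only through its level with conditioned medium, and it did not pass with any array left out. The median of the 21 was -0.17 log2, and as deposited 0.55 log2.

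Genes of the cAMP and CREB response were called about as often as genes in general. All 22 on the list were tested, and 2 rose, 0 fell and 20 were not called, against 8.53% higher and 1.78% lower of all 11494 genes, with 3 higher and 0 lower at an unadjusted p under 0.05 in limma. The early response factor Fos read 8.69 and 8.38 log2 on the EGF arrays and 9.38 and 9.50 log2 on the arrays with conditioned medium (0.91 ± 0.12 SE; limma adjusted p = 4.02e-04), and it passed with any array left out except conditioned-medium replicate 2. Bdnf, a neurotrophin, rose by 0.55 ± 0.18 log2 (SE; limma adjusted p = 0.0450) and did not pass with any array left out. Creb1 itself differed by -0.14 ± 0.10 log2 (SE). Fos also answers to growth factor signals. The median of the list was -0.02 log2.

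Transcription factors of somatostatin cells and other peptide neurons, listed from work on forebrain and pancreas, were in part dim. Of 18, 11 were on the array and 7 were tested. In limma 0 rose and 0 fell, against 8.53% higher and 1.78% lower of all 11494 genes. With 7 genes tested, 0 calls are near those shares. The counts were also 0 and 0 at an unadjusted p under 0.05 on all 3 scales. Ptf1a, a factor required for amacrine and horizontal cells, had the lowest difference (-0.56 ± 0.15 SE; -0.14 log2 as deposited). Isl1 (-0.35 ± 0.12 SE) and Dlx1 (-0.39 ± 0.17 SE) did not pass, and Satb1 differed by 0.00 ± 0.08 log2 (SE). These 4 are named after their values were seen.

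**Figure D3:**
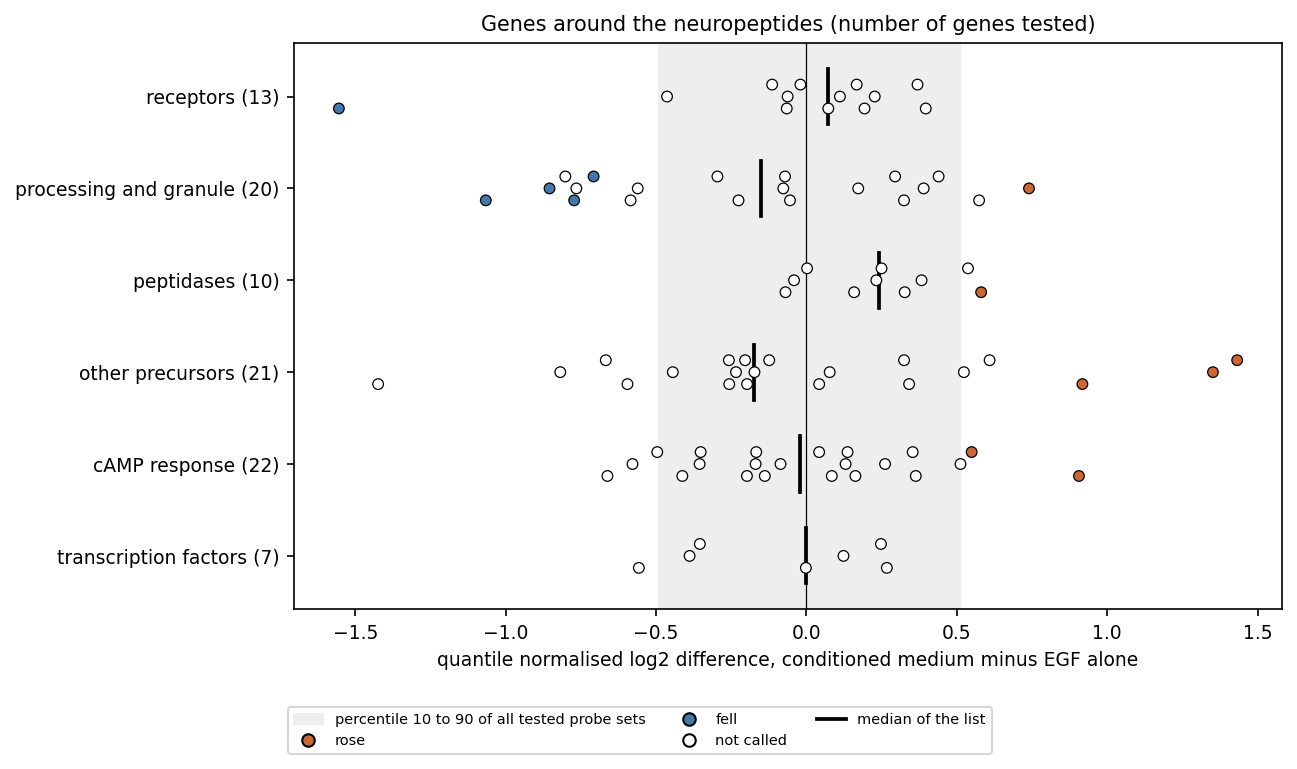
Quantile normalised log2 difference (conditioned medium minus EGF alone) of every tested gene of the 6 lists around the neuropeptides; filled points rose (orange) or fell (blue) on all 3 scales, thick lines are list medians, and the grey band runs from percentile 10 to percentile 90 of all tested probe sets (-0.49 to 0.51 log2). Oprk1 is the blue point among the receptors, 4 granule genes are blue, and Nts and Npvf are the orange points farthest right.

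Markers of the cells that could hold these peptides moved on the same arrays. For comparison with each list on all 4 arrays, 8.53% of all 11494 genes were called higher and 1.78% lower. With 1 array left out fewer probe sets were called in all, so these shares do not apply to those fits. Of 18 amacrine and horizontal cell markers, all tested, 4 fell and 0 rose (limma, all 3 scales, with 5 and 0 at an unadjusted p under 0.05). On the quantile normalised scale alone 12 were lower, against 12.9% of all tested probe sets. Lhx9, a LIM homeobox factor, fell by 1.64 log2 and the homeobox factor Meis2 by 0.71 log2, beside the calcium-binding protein Calb2 and the GABA-synthesising enzyme Gad1. The mean over all 18 was 8.33 and 8.37 log2 on the EGF arrays and 7.79 and 7.77 log2 on the arrays with conditioned medium. Of 10 markers of neurons in general 4 fell (Snap25 by 0.95 log2 and Tubb3 by 0.75 log2, with Elavl4 and Syp), from means over all 10 of 10.43 and 10.31 to 9.85 and 9.80 log2. Of 7 tested ganglion cell markers 0 fell and Rbpms rose by 1.33 log2, with the same counts at an unadjusted p under 0.05. Rbpms went against its list, whose median was -0.33 log2 quantile normalised and 0.18 log2 as deposited. On the quantile normalised scale alone 1 ganglion marker was higher and 2 were lower, against 12.6% and 12.9% of all tested probe sets. The 4 falls among amacrine and horizontal markers were 3, 1, 3 and 1 without EGF replicates 1 and 2 and conditioned-medium replicates 1 and 2 in turn. The 4 among neuronal markers were 1, 0, 2 and 1 in the same order. The part of these markers in the levels of Sst, Tac1 and the granule genes was not tested.

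Markers of other cells moved too. Their counts on all 4 arrays are again to be read beside the 8.53% higher and 1.78% lower of all 11494 genes. Counts with 1 array left out are not, since the total called fell in those fits as well. Of 9 tested photoreceptor markers 7 fell, with Opn1sw (-2.41 log2) and Pdc (-2.07 log2) lowest. The mean over the 10 on the array, 1 of them dim, went from 8.91 and 8.74 to 7.61 and 7.55 log2. Of 8 progenitor and Müller glia markers 5 rose, among them Fgf19 (2.02 log2) and Ccnd1 (1.35 log2), and 0 fell. Other tested probe sets differed by 1.84 and 1.56 log2 for Ccnd1, and by 0.71 and -0.65 log2 for Slc1a3, also 1 of the 5. At an unadjusted p under 0.05 in limma on all 3 scales 5 of them were higher and 1 lower. The lowest difference in this list was -0.70 log2. Of 10 tested microglia markers 7 rose, among them Fcer1g (1.08 log2) and Tyrobp (1.16 log2). For 2 others of the 7, a further tested probe set differed by 1.05 log2 (Laptm5) and -0.23 log2 (Aif1). The mean over the 12 on the array, 2 of them dim, went from 5.42 and 5.49 to 6.26 and 6.30 log2. Of 8 tested pericyte and fibroblast markers 7 rose, among them Col1a2 (2.95 log2) and Tagln (2.69 log2). The mean over the 12 on the array, 4 of them dim, went from 5.29 and 5.21 to 6.26 and 6.27 log2. Ptprc and C1qc among the microglia rises, Tagln, and Flt1 below had a mean on the EGF arrays that was itself dim, and were tested only through their level with conditioned medium. Without EGF replicates 1 and 2 and conditioned-medium replicates 1 and 2 in turn, the photoreceptor falls were 6, 5, 6 and 6, the progenitor rises 4, 3, 2 and 3, the microglia rises 6, 4, 3 and 1 and the pericyte and fibroblast rises 5, 4, 3 and 2. Of 6 tested endothelial markers 2 rose, the receptor Flt1 (2.09 log2, not without conditioned-medium replicate 1) and Esam (0.72 log2, not with any array left out), while Pecam1, Tek and Tie1 were dim. Of 5 tested astrocyte markers Pdgfra rose (0.62 log2, not with any array left out), and of 4 tested lens markers 0 rose and 0 fell, with 1 higher at an unadjusted p under 0.05 in limma. The part of these cells in the peptide differences was not tested.

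**Figure D4:**
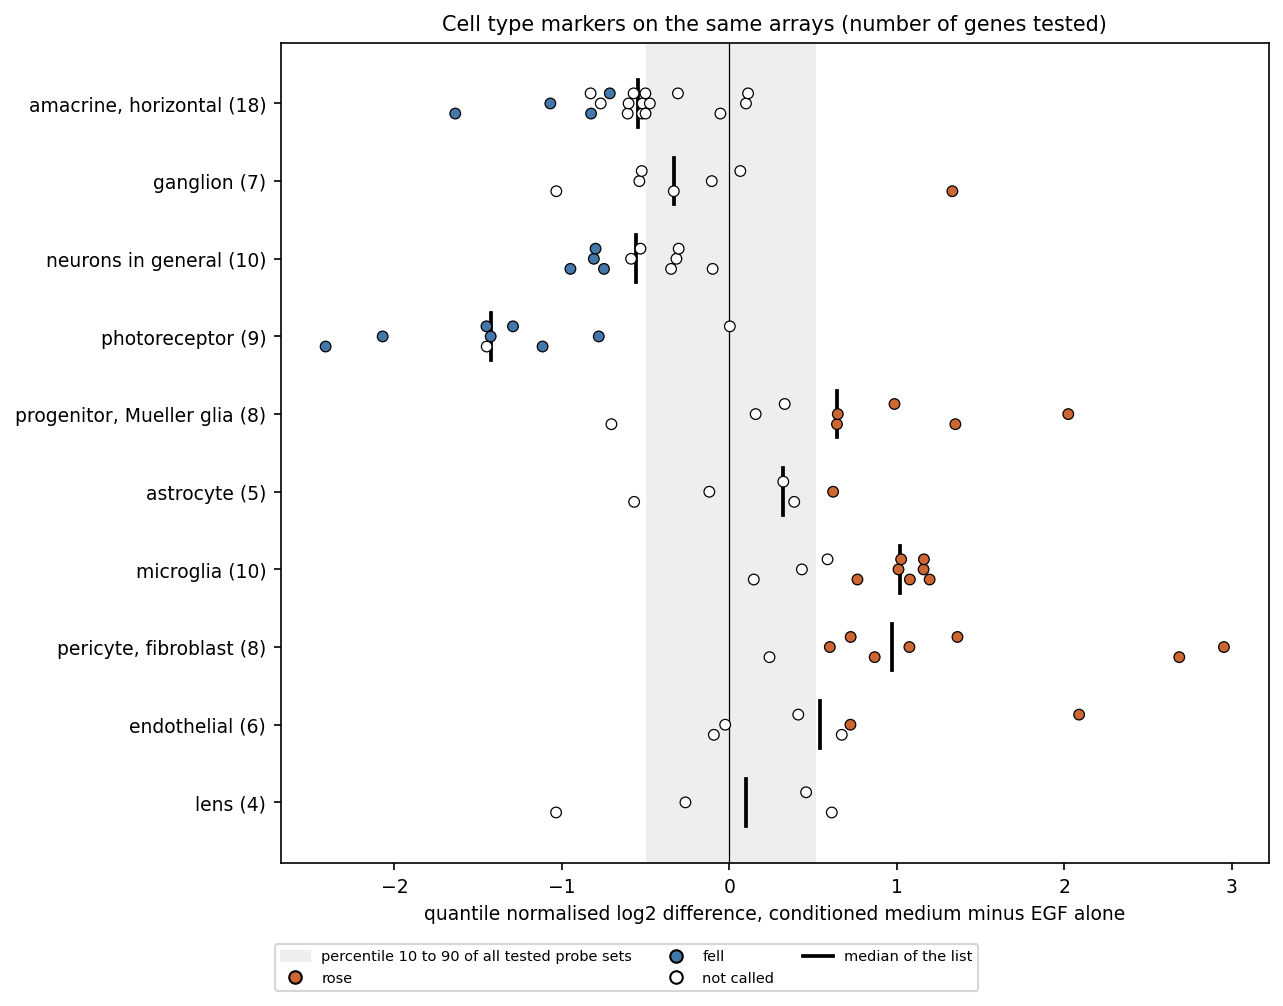
Quantile normalised log2 difference (conditioned medium minus EGF alone) of every tested marker of 10 cell type lists; filled points rose (orange) or fell (blue) on all 3 scales, thick lines are list medians and the grey band is percentile 10 to percentile 90 of all tested probe sets. The medians of the amacrine and horizontal list (-0.55 log2) and of neurons in general (-0.56 log2) lie left of 0, and those of microglia (1.02 log2) and of pericytes and fibroblasts (0.97 log2) lie right of it.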

How the data were processed

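Total RNA of 4 cultures was labelled with biotin and hybridised to Affymetrix Rat 230 2.0 arrays. Per the labels and the series' design text, the log2 values deposited by the authors came from RMA run in GenePattern, whose release and settings are not given in the sources used here. Gene names are those of the platform annotation, and the 8 members matched RefSeq (GRCr8) by gene identifier. Deposited values were quantile normalised, with the deposited and median-centred values as alternatives. The 57 control probe sets and those under the 30th percentile were left out. Conditioned medium minus EGF was fitted with limma 3.58.1 in R 4.3.3 (intensity trend, no block, two-sided) and adjusted over 21717 probe sets. Rose and fell require an adjusted p under 0.05 in 1 direction on all 3 scales. Lists use the brightest probe set of a gene. The members and lists were chosen with earlier results of these data known. Named are all members, Sstr1 to Sstr5, up to 4 called genes of each of the 6 pathway lists and up to 2 of each of the 10 marker lists with the smallest p and no overlap of the groups, and the 5 profiles nearest to Sst, passing over symbols of predicted genes. Any other gene is named after its values were seen. The arrays' number, 2 per group, limits the precision. The limma p-values rest on the spread between these samples combined with a spread that limma shares across probe sets. On deposited values limma took each spread wholly from the intensity trend.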

Additional observations from a re-analysis of the deposited data

How the results depend on the processing

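Sst kept its direction and its call under every alternative run. The cause of the changes given here was not tested, beyond the fewer arrays in fits that leave 1 out, where the lone array is assumed to vary like the other group. As deposited the member differences were -1.24 (Sst), 0.85 (Npy), -0.48 (Tac1), 0.97 (Cck), 0.16 (Gal), 0.82 (Penk), 0.23 (Vip), 0.0296 (Adcyap1 1368892_at) and 0.37 log2 (Adcyap1 1394908_at). Median centred they were 0.29 (Npy), -1.05 (Tac1), -0.41 (Gal) and 0.25 log2 (Penk). Leaving out 1 array gave -1.97 to -1.40 (Sst), 0.49 to 0.59 (Npy), -0.86 to -0.75 (Tac1), 0.19 to 0.51 (Cck), -0.23 to -0.09 (Gal), 0.37 to 0.52 (Penk) and -0.39 to 0.24 log2 for Adcyap1 1394908_at, which came to 0.24 without EGF replicate 1, and to 0.01 log2 when the first conditioned-medium array was left out. Of all probe sets 1579 were called higher and 328 lower. Leaving out 1 array gave 525 to 1258 higher and 76 to 152 lower; member calls were then 0 to 1 higher and 1 lower, granule calls 0 to 2 higher and 0 to 1 lower, peptidases 0 to 1 higher, other precursors 2 to 3 higher and 0 to 1 lower, and cAMP genes 0 to 1 higher. Deposited values alone called 8318 higher in all, 3 members, 6 receptors, 7 granule genes, 7 peptidases, 7 other precursors, 10 cAMP genes and 2 transcription factors. Median-centred values alone called 5568 lower in all, 2 granule genes higher and 11 lower, 2 peptidases higher, and 3 other precursors, 9 cAMP genes and 2 transcription factors lower. Quantile normalised values alone, chosen after seeing the data, called 2738 higher and 2808 lower in all, 2 members and 1 receptor higher, 3 granule genes higher and 9 lower, 4 cAMP genes higher and 6 lower, and 3 other precursors and 1 transcription factor lower. The mean of a gene's probe sets called 1052 genes higher and 149 lower, 1 receptor higher and 0 lower, 2 granule genes higher and 0 peptidases. Without the filter 0 members and 1 cAMP gene were called higher, and with the 50th percentile as limit 2 granule genes. Without the intensity trend 210 were called lower, 0 members higher and 1 lower, 1 granule gene lower and 1 cAMP gene higher. With the replicate block 1469 were called higher and 45 lower, 0 members higher and 1 lower (Sst), 2 granule genes higher and 0 lower, and 1 cAMP gene higher; of the 4 falls each among amacrine and horizontal markers and among neuronal markers, 1 (Lhx9) and 0 passed with the block, and 2 and 1 without the trend. Each embryo pool gave both conditions, but no label ties the numbers to embryo pools, and same-numbered arrays deviated with r = -0.04 quantile normalised and -0.12 as deposited. The crossed pairing, chosen after seeing the data, called 1888 higher and 718 lower. The 27 named genes counted next are only those called on all 3 scales and picked from the lists by the naming rule. Of 27 named genes beyond the members, 10 kept their call in every alternative with a filter, block, trend or array changed, and 2 more (Fgf19 and Tagln) did so wherever they were tested but fell under the 50th percentile limit.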

Other observations

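The deposited values of each array fell on a limited set of levels. The 31099 probe sets took 2738 and 2897 distinct values on the EGF arrays and 3291 and 3087 on the conditioned-medium arrays. Above a linear value of 100, between 98.0% and 98.5% of the steps between neighbouring distinct linear values were whole numbers, within 0.01. The step just below the value of Sst was 0.0055 to 0.0176 log2, far smaller than its difference between the conditions.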
